A study of Mus musculus with 12 samples.

Results

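Acute-phase and IL-6/STAT3 response genes were followed in mouse prostate and in a prostate tumor. They were the secreted proteins Lcn2, Lrg1, Saa1, Saa2, Saa3, Hp, Fgb, Fgg and Ptx3, and the intracellular inhibitor Socs3, 10 of the 24421 genes in the expression tables. The set was drawn up because several of its genes were high in the tumor and lower in TRAMP prostates on a phenethyl isothiocyanate (PEITC) diet than on control diet at 24 weeks. Those values therefore describe how the genes were chosen and carry no test. All 10 had a mean of at least 0.5 FPKM (a read-count unit corrected for gene length and sequencing depth) over the 12 libraries, the minimum for testing. Fgb, Fgg and Ptx3 met it through the tumor alone, and the other 7 met it without that library.

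Tissue was taken at 2 ages, 16 and 24 weeks. The animals were C57BL/6 wild type mice and C57BL/6-Tg(TRAMP)8247Ng/J mice, whose SV40 T antigen transgene is driven by the rat probasin promoter in prostate epithelium. Wild type mice ate control AIN93M diet and are represented by replicates 0 and 1 at the older age and a single library at the younger. The TRAMP control diet group has replicates 0 and 2 at the older age and replicates 0 and 1 at the younger. TRAMP mice fed AIN93M with 0.05% (w/w) PEITC are represented by replicates 0 and 1 at both ages. No wild type library on PEITC diet was analysed here. These 11 libraries were labelled as ventral and dorsolateral prostate. The remaining library was made from a 24-week TRAMP tumor of unknown lobe. The tumor and the 16-week wild type group hold 1 library each, so their values have no replicate error.

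In the acute-phase response, cytokines of the IL-6 family bind receptors that share the gp130 chain (Il6st), JAK kinases phosphorylate STAT3, and STAT3 acts with C/EBP factors and NF-kB at the promoters of secreted plasma proteins. The liver is the main source of serum amyloid A, haptoglobin and fibrinogen. Epithelia and myeloid cells make lipocalin 2, serum amyloid A3 and pentraxin 3 at sites of inflammation. Socs3 is a STAT3 target whose product binds gp130 and JAK kinases and damps the signal.

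Short DNA words bound by these factors were searched on both strands in the 250 bases before the RefSeq start (build GRCm38.p6) of the 9 genes matched; Hp had no entry. The STAT word TTCNNNGAA occurred in Fgb and Socs3 and in 7.02% of 32851 promoters of the same length. The type II IL-6 response element CTGGGAA occurred in Lrg1, Fgb and Fgg and in 9.10% of promoters. The C/EBP word TTGCNNAA occurred in 6 of the 9 (Lcn2, Saa1, Saa2, Saa3, Fgb and Ptx3) and in 9.56% of promoters. The NF-kB word, GGGNN followed by TTTCC, occurred in none of the 9 and in 1.41% of promoters. None of the matches overlapped another. A match shows only that the letters are present in the window. Fgb held 3 of the 4 words, and it is shown with Fgg, Lrg1 and Saa3 because these genes had the most distinct patterns described below. Each is written 5′ to 3′ on the strand of its gene, with the matched words in capitals. The stretches are chr3:83049864-83050113 (minus strand), chr3:83007574-83007723 (plus), chr17:56122002-56122096 (minus) and chr7:46715701-46715826 (minus).
Fgb: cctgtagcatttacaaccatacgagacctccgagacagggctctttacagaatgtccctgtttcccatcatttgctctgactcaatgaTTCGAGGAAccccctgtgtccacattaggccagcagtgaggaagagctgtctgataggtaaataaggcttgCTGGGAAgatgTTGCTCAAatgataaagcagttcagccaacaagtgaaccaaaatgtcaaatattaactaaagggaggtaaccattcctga
Fgg: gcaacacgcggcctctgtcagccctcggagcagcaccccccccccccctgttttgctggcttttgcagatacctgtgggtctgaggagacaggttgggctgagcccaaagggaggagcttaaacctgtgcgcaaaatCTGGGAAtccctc
Lrg1: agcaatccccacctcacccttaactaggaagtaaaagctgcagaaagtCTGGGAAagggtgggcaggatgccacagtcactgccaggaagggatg
Saa3: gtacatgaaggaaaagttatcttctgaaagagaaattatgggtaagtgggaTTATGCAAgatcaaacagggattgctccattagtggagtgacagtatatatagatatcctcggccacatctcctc

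Depth relative to the deepest library was 0.635 to 1, with the 3 wild type libraries (0.635 to 0.694) and the tumor (0.699) below most TRAMP prostates. The 7 luminal epithelial markers, among them Krt8, Krt18 and Hoxb13, summed to 2208 to 2564 FPKM in every library, tumor included. Prostate secretory genes summed to 23523 to 28066 FPKM in wild type, 3398 to 7225 FPKM in TRAMP prostates and 3068 FPKM in the tumor. The 16-week wild type library had 7813 FPKM of seminal vesicle transcripts against at most 8.02 FPKM elsewhere. Replicate 1 of TRAMP on PEITC at 24 weeks stood apart by 12.4 FPKM of Chga, a neuroendocrine gene at no more than 0.958 FPKM in any other library.

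Lcn2 encodes lipocalin 2, which binds bacterial siderophores and is released by neutrophils and inflamed epithelium. The gene lies at chr2:32384633-32388252 (minus strand, mm10). Lcn2 was at 400.3 FPKM in the tumor. It was at 115 and 61.3 FPKM in TRAMP prostate at 24 weeks (replicates 0 and 2) and at 10.9 and 10.4 FPKM on PEITC (replicates 0 and 1). At 16 weeks TRAMP replicates 0 and 1 had 21.0 and 8.89 FPKM on control diet and 6.82 and 23.2 FPKM on PEITC. Wild type libraries had 135 and 11.4 FPKM at 24 weeks and 114 FPKM at 16 weeks. The tumor was thus the highest, but 2 of the 3 wild type libraries were about as high as the higher TRAMP replicate, and the third was near the PEITC libraries. Wild type and TRAMP overlapped at 24 weeks.

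Lrg1, leucine-rich alpha-2-glycoprotein, is a plasma protein known to modify TGF-beta signalling in vessels (chr17:56119678-56122001, minus strand). Its level was the highest of the 10 genes, at 877 FPKM in the tumor. TRAMP prostate at 24 weeks had 543 and 171 FPKM on control diet and 22.9 and 20.1 FPKM on PEITC. At 16 weeks the TRAMP values were 44.6 and 22.4 FPKM on control diet and 18.6 and 57.0 FPKM on PEITC. Wild type had 77.4 and 24.8 FPKM at 24 weeks and 80.6 FPKM at 16 weeks. The 2 TRAMP control libraries at 24 weeks exceeded every other prostate library, although they differed 3.18-fold from each other, and the tumor exceeded both. All 6 endothelial markers were also higher in the tumor than in both TRAMP prostates at 24 weeks, as were 38.5% of genes tested. These markers summed to 23.8 FPKM in the tumor against 8.04 and 11.1 FPKM, and their part in the Lrg1 level was not tested. In bulk tissue a change in the number of cells of a type and a change in RNA per cell cannot be told apart, here and for every gene that follows.

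**Figure D1:**
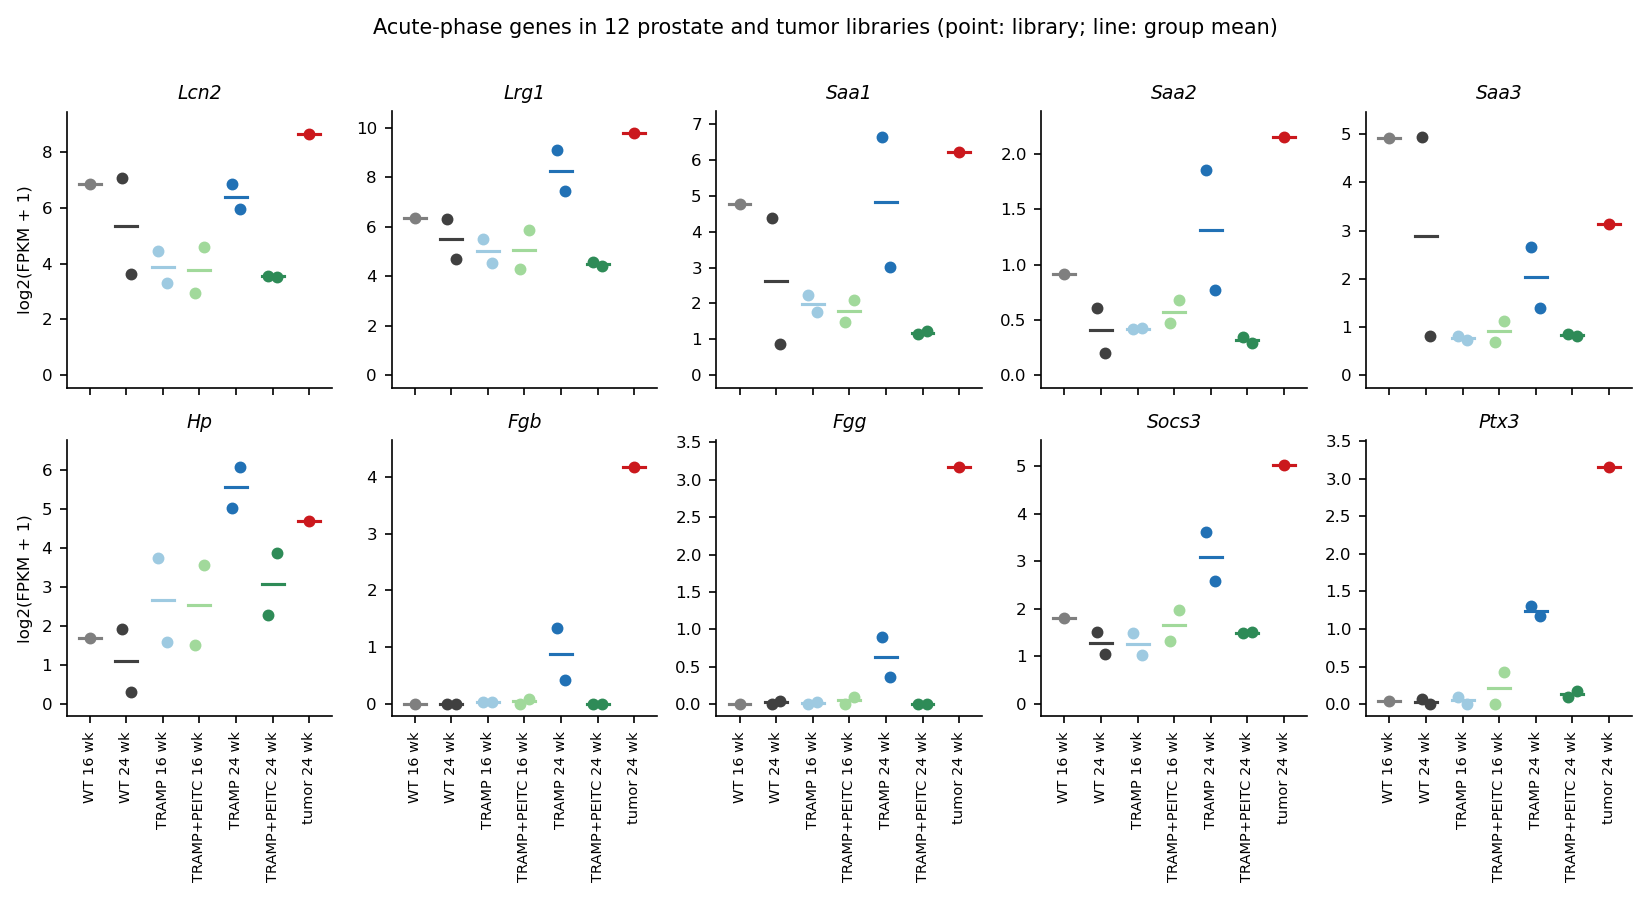
Level of each of the 10 genes as log2(FPKM + 1), vertical axis, in the 12 libraries grouped by genotype, diet and age. Each point is a library and each line a group mean. The tumor was highest for 7 genes; Saa3 was highest in wild type libraries (29.9 and 29.1 FPKM) and Saa1 in replicate 0 of TRAMP at 24 weeks (99.5 FPKM).

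The serum amyloid A proteins are small apolipoproteins, and Saa1 and Saa2 are the forms carried on high-density lipoprotein in acute-phase plasma. Saa3 is made mainly outside the liver. The 3 genes lie close together on chromosome 7: Saa3 at chr7:46711998-46715700 and Saa1 at chr7:46740497-46742980 on the minus strand, Saa2 at chr7:46751790-46754313 on the plus strand. The main GENCODE M21 transcripts of Saa1 and Saa2 were identical at 94.4% of 606 aligned bases, against 74.3% for Saa1 and Saa3. How reads shared by Saa1 and Saa2 were counted is not given in the sources used here, so the split between that pair is uncertain. Their promoters were as close, with 95.6% of 249 aligned bases identical, against 59.4% for Saa1 and Saa3. The 200 bases that hold the 11 differences are shown because the pair differed in level by more than an order of magnitude in several libraries. They are chr7:46743031-46743230 (minus strand) and chr7:46751583-46751782 (plus strand), with the differing bases in capitals and gaps unmarked.
Saa1: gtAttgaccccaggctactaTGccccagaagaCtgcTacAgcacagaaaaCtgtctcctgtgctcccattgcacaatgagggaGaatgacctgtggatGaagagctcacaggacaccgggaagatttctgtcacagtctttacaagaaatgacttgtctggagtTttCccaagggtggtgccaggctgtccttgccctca
Saa2: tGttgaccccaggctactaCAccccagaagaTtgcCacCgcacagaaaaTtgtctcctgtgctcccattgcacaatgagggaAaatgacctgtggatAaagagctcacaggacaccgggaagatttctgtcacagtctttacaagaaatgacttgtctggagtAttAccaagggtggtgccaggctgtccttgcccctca

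Saa1 was at 74.6 FPKM in the tumor and at 99.5 and 7.06 FPKM in TRAMP prostate at 24 weeks. On PEITC it was at 1.20 and 1.34 FPKM. At 16 weeks TRAMP had 3.67 and 2.36 FPKM on control diet and 1.78 and 3.32 FPKM on PEITC, while wild type had 19.7 and 0.817 FPKM at 24 weeks and 26.5 FPKM at 16 weeks. The high mean in TRAMP prostate at 24 weeks thus came from replicate 0, which was 14.1 times replicate 2 and above the tumor, and wild type libraries spanned 24.2-fold at 24 weeks.

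Saa2 stayed below 3.5 FPKM. It was at 3.45 FPKM in the tumor, at 2.61 and 0.703 FPKM in TRAMP prostate at 24 weeks and at 0.272 and 0.222 FPKM on PEITC. TRAMP at 16 weeks had 0.332 and 0.344 FPKM on control diet and 0.385 and 0.600 FPKM on PEITC. Wild type had 0.527 and 0.148 FPKM at 24 weeks and 0.888 FPKM at 16 weeks. As for Saa1, the tumor and replicate 0 of TRAMP at 24 weeks were the 2 highest libraries.

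Saa3 had a different order. Wild type had 29.9 and 0.764 FPKM at 24 weeks and 29.1 FPKM at 16 weeks. The tumor had 7.76 FPKM, and TRAMP prostate at 24 weeks had 5.36 and 1.61 FPKM on control diet and 0.814 and 0.764 FPKM on PEITC. TRAMP prostates at 16 weeks had 0.763 and 0.658 FPKM on control diet and 0.618 and 1.17 FPKM on PEITC. So 2 of 3 wild type libraries exceeded the tumor more than 3-fold, the third equalled the PEITC libraries, and the within-group ratio of wild type at 24 weeks, 39.2-fold, was the widest of all 10 genes.

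The genes whose log2(FPKM + 1) levels were most like Saa3 over the 12 libraries were Ltf, the neutrophil and glandular protein lactoferrin (Pearson r = 0.98, Spearman rho = 0.70), and the secreted C-type lectins Reg3b (0.93 and 0.90) and Reg3g (0.91 and 0.93). These libraries share groups and the same tissue, so the values are descriptive. Ltf was at 8.02 and 6.91 FPKM in the 2 wild type libraries with high Saa3, 0.115 FPKM in the third and 2.64 FPKM in the tumor. Reg3g was at 28.4, 4.26, 0 and 1.79 FPKM in the same order. Ltf is also on the list of neutrophil markers. The other 11 matched markers summed to 1.02 and 2.44 FPKM in the 2 wild type libraries with high Saa3, 0.899 FPKM in the third, 6.80 FPKM in the tumor and at most 1.58 FPKM in the TRAMP prostates. In the 24-week wild type pair most of the sum without Ltf was Mmp9, at 0.853 and 0.682 FPKM. The granule genes Elane and Mpo were at no more than 0.110 and 0.0388 FPKM in any library. S100a8 was at 2.06 FPKM in the tumor and at most 0.251 FPKM elsewhere. Of the 13 listed neutrophil markers 12 were matched. Among these, 8 were higher in the tumor than in both TRAMP prostates at 24 weeks, against 38.5% of genes tested. The part of the neutrophil markers in the levels of Saa3 and Lcn2 was not tested.

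**Figure D2:**
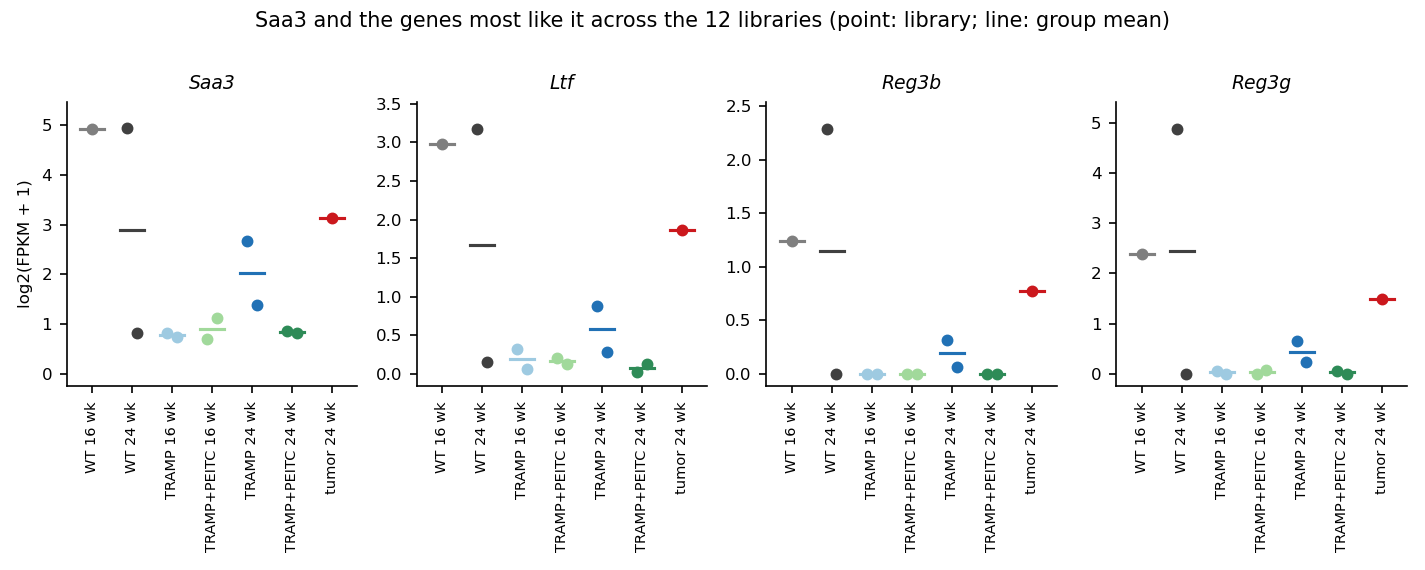
Saa3 and the 3 genes most like it, Ltf, Reg3b and Reg3g, as log2(FPKM + 1), vertical axis, by group. Each point is a library and each line a group mean. The 16-week wild type library and 1 of the 2 wild type libraries at 24 weeks were the highest for all 4 genes, the other was near 0 for Ltf, Reg3b and Reg3g, and the tumor came next.

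Hp encodes haptoglobin, which captures free hemoglobin (chr8:109575128-109579172, minus strand). It was at 31.4 and 66.7 FPKM in TRAMP prostate at 24 weeks, 24.8 FPKM in the tumor and 3.86 and 13.7 FPKM on PEITC. At 16 weeks TRAMP had 12.4 and 2.03 FPKM on control diet and 1.85 and 10.8 FPKM on PEITC. Wild type had 2.80 and 0.235 FPKM at 24 weeks and 2.23 FPKM at 16 weeks. Hp was the only one of the 10 genes that was lower in the tumor than in both TRAMP prostates, and the only one higher in replicate 2 of TRAMP at 24 weeks than in replicate 0. Its closest genes over the 12 libraries were Tlr2, a pattern-recognition receptor (r = 0.95, rho = 0.97), Unc93b1, a chaperone of endosomal Toll-like receptors (0.95 and 0.93), and the chemokine Ccl6 (0.94 and 0.94). Replicate 2 also had the highest macrophage sum, 401 against 179 FPKM in replicate 0, with 314 FPKM in the tumor, 209 and 249 FPKM on PEITC and 84.9 to 117 FPKM in wild type; its part in the Hp level was not tested.

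Fgb and Fgg encode the beta and gamma chains of fibrinogen, the clotting protein, and lie in 1 cluster on chromosome 3 (chr3:83040141-83049863, minus strand, and chr3:83007724-83015049, plus strand). Fgb was at 17.0 FPKM in the tumor and at 1.53 and 0.335 FPKM in TRAMP prostate at 24 weeks. It was listed at 0 in both PEITC libraries at 24 weeks, in all 3 wild type libraries and in replicate 0 of PEITC at 16 weeks, and at 0.0215 to 0.0698 FPKM in the other 3 libraries. Fgg was at 7.99 FPKM in the tumor, at 0.862 and 0.281 FPKM in TRAMP prostate at 24 weeks, and listed at 0 in both PEITC libraries at that age. In the 7 other libraries Fgg was at no more than 0.0721 FPKM. Fibrinogen transcripts were thus near the limit of detection outside the tumor and the 24-week TRAMP prostates. Their levels moved together (r = 0.999, rho = 0.87 over the 12 libraries; r = 0.99 over the 11 without the tumor). Fga, the alpha chain, was at 1.04 FPKM in the tumor and at most 0.0931 FPKM elsewhere, too low for testing.

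Liver transcripts were looked for because fibrinogen is a hepatocyte product. Alb was at 0.0219 FPKM in the tumor and at most 0.132 FPKM in any library, and Cyp3a11 was at 0 in all 12. The 12 hepatocyte markers summed to 13.9 FPKM in the tumor and to 6.46 to 37.8 FPKM in the other libraries. Higher sums than in the tumor came from TRAMP at 24 weeks, 37.8 FPKM in PEITC replicate 1 and 22.1 FPKM in control replicate 2. Most of both was Cyp2e1 (30.4 and 13.7 FPKM), which was at 0.387 FPKM in the tumor. All remaining prostate libraries summed to at most 12.3 FPKM, below the tumor. Of the 12 markers 3 were higher in the tumor than in both TRAMP prostates at 24 weeks, against 38.5% of genes tested. Among those 3 was Ahsg, at 7.81 FPKM in the tumor and at most 2.65 FPKM elsewhere.

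Ptx3, the long pentraxin, opsonises microbes (chr3:66219910-66225805, plus strand). It was at 7.92 FPKM in the tumor, 1.46 and 1.25 FPKM in TRAMP prostate at 24 weeks, and 0.0692 and 0.123 FPKM on PEITC. TRAMP at 16 weeks had 0.0703 and 0 FPKM on control diet and 0 and 0.343 FPKM on PEITC, and wild type had at most 0.0478 FPKM. The 2 TRAMP libraries at 24 weeks differed only 1.17-fold, the closest agreement of the 10 genes.

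Socs3 (chr11:117966079-117970047, minus strand) was at 31.6 FPKM in the tumor and at 11.2 and 4.96 FPKM in TRAMP prostate at 24 weeks. On PEITC it was at 1.79 and 1.86 FPKM. The other libraries lay between 1.05 and 2.94 FPKM, wild type included. The genes most like it over the 12 libraries were Sprr2a3, a cornified envelope protein gene (r = 0.98, rho = 0.76), the Toll and IL-1 receptor adaptor Myd88 (0.98 and 0.83) and the kinase gene Jak3 (0.98 and 0.84). Sprr2a3 led for Ptx3 as well (0.99 and 0.83), with 18.6 FPKM in the tumor, 3.34 and 1.32 FPKM in TRAMP prostate at 24 weeks and at most 0.688 FPKM elsewhere. For Lrg1 the closest genes were Steap4, a metalloreductase (0.95 and 0.87), Stat3 (0.95 and 0.92) and Cebpd, a C/EBP factor (0.95 and 0.89). Over the 45 pairs among the 10 genes, r ranged from -0.01 to 0.999 with a median of 0.79, and the median was 0.76 over the 11 libraries without the tumor.

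Side by side, the 24-week differences were described in log2(FPKM + 1) units, a scale that compresses differences between low values. Every one of the 10 genes was lower in both PEITC libraries than in both TRAMP control libraries, as were 20.8% of the 13375 genes tested; the genes were chosen on this contrast, and nothing is read from the count. The difference was -3.77 for Lrg1, -3.65 for Saa1, -2.86 for Lcn2 and -2.47 for Hp. It was -1.59 for Socs3, -1.19 for Saa3, -1.10 for Ptx3 and -0.99 for Saa2. For Fgb and Fgg, listed at 0 on PEITC, no fold is given. As ratios of mean FPKM, levels on control diet were 42.0 times those on PEITC for Saa1, 16.6 times for Lrg1, 14.1 times for Ptx3 and 8.23 times for Lcn2. The other 4 genes with values above 0 on PEITC had ratios of 4.42 to 6.71. Several rest on replicate 0 of the control diet: without it the ratio was 5.56 for Saa1, 7.96 for Lrg1, 2.84 for Saa2, 2.05 for Saa3 and 2.72 for Socs3. It was 5.73 for Lcn2, 13.0 for Ptx3 and 7.59 for Hp, whose ratio was 3.57 without replicate 2. The median difference of the 10 genes was -1.39 against 0.01 over all genes tested.

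Both PEITC values at 24 weeks fell within the range of the 4 TRAMP libraries at 16 weeks for 7 of the 10 genes, as they did for 51.5% of all genes tested; the PEITC libraries were used in choosing the genes, and nothing is read from this count. The exceptions were Saa1 and Saa2, below that range, and Hp, with 1 replicate above it. All 10 genes were higher in both TRAMP control libraries at 24 weeks than in both at 16 weeks, as were 21.5% of genes, with a median log2 difference of 1.54 against -0.01 over all genes. The PEITC and age comparisons share the 24-week TRAMP control libraries. Depth was alike in the 4 libraries on either diet at 24 weeks (0.925 to 1), adipocyte sums were 81.1 and 254 FPKM on control diet and 33.1 and 393 FPKM on PEITC, and neutrophil sums were 2.12 and 1.80 against 1.02 and 1.51 FPKM; their part in the differences was not tested.

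**Figure D3:**
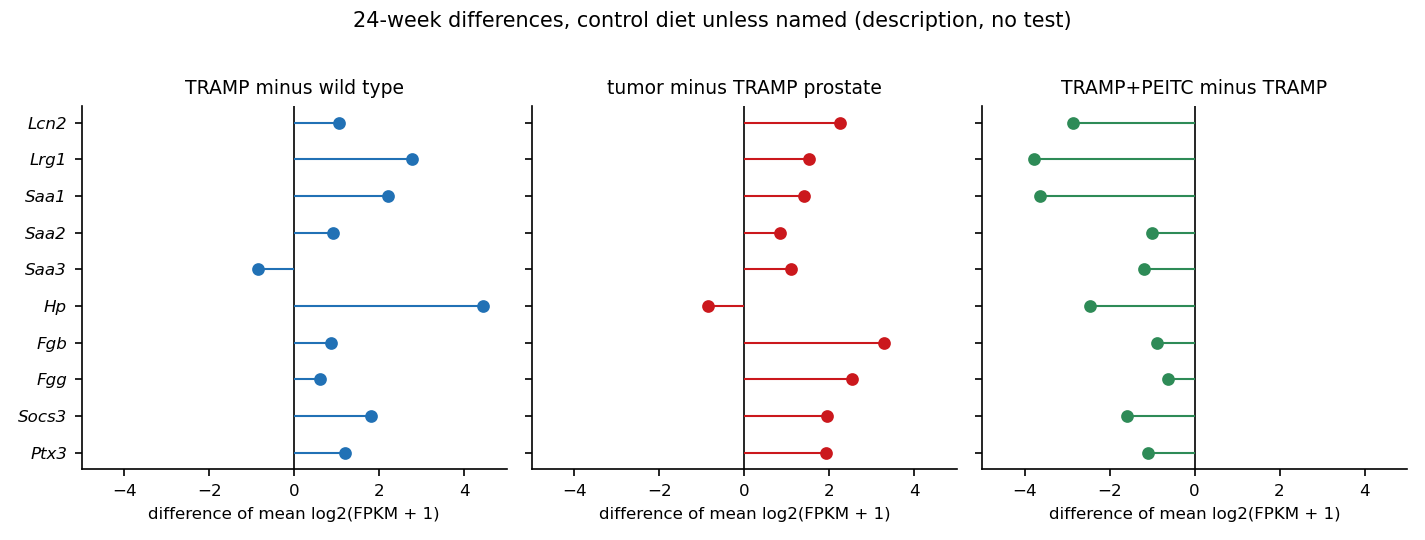
Differences of group means of log2(FPKM + 1), horizontal axis, for the 10 genes at 24 weeks: TRAMP minus wild type, tumor minus TRAMP prostate, and PEITC minus control diet in TRAMP. Points are differences with no test or error, because the genes were chosen on these libraries. Saa3 lies left of 0 in the first panel (-0.86), Hp in the second (-0.86), and all 10 genes in the third.

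Against wild type at 24 weeks, both TRAMP control libraries were higher for 7 of the 10 genes, against 36.7% of all genes tested; these libraries also belong to the choice of the genes. The log2 difference was 4.43 for Hp, 2.76 for Lrg1, 1.80 for Socs3, 1.20 for Ptx3 and 0.91 for Saa2. Lcn2 (1.05), Saa1 (2.21) and Saa3 (-0.86) overlapped between the genotypes. For all 3, wild type replicate 0 was high and replicate 1 low. Without wild type replicate 1 the Lcn2 difference was -0.68, and without wild type replicate 0 the Saa3 difference was 1.21. The Saa1 difference was 0.46 without wild type replicate 1 and 0.39 without TRAMP replicate 0. Wild type replicate 0 also had the larger adipocyte sum, 126 against 20.7 FPKM, and the part of that difference was not tested.

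The tumor exceeded both TRAMP prostates at 24 weeks for 8 of the 10 genes, as it did for 38.5% of genes tested, and exceeded both wild type libraries for 9 of 10, against 45.5%. Its log2 difference from TRAMP prostate was largest for Fgb (3.29) and Fgg (2.54), followed by Lcn2 (2.24), Socs3 (1.93), Ptx3 (1.92), Lrg1 (1.52), Saa1 (1.41), Saa3 (1.10) and Saa2 (0.84). It was -0.86 for Hp. Saa1 lay between the 2 TRAMP libraries, and without replicate 2 its difference was -0.41.

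The 16-week libraries and the wild type libraries were not used in choosing the genes, so these were tested with limma over all 13375 genes (Benjamini-Hochberg adjusted p under 0.05). TRAMP at 16 weeks was compared with the single wild type library of that age, the one with seminal vesicle transcripts, whose spread was taken from the other groups. Only Saa3 was called lower in TRAMP, by a log2 fold change of -4.14 (SE 1.34, limma adjusted p = 0.0469). That is 1 of the 7 genes that reached the minimum for testing without the tumor, where 33.6% of all genes passed in either direction and 15.4% were lower. Lcn2 had -2.97 (SE 1.26, limma adjusted p = 0.105), Saa1 -2.80 (SE 1.58, limma adjusted p = 0.207) and Lrg1 -1.32 (SE 0.91, limma adjusted p = 0.296). Socs3 had -0.55, Saa2 -0.50 and Hp 0.98. Fgb, Fgg and Ptx3 were at no more than 0.0703 FPKM in these libraries. Both TRAMP libraries lay below the wild type library for 6 genes (40.4% of all genes) and above it for 1, Fgb (44.2%). The Saa3 call was lost with the wild type libraries of 24 weeks as control (log2 fold change -2.11, limma adjusted p = 0.157) and when either TRAMP library was left out (limma adjusted p = 0.105 and 0.114). The part of the seminal vesicle transcripts in these differences was not tested.

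Between PEITC and control diet in TRAMP at 16 weeks none of the 7 genes that reached the minimum without the tumor passed in limma, and none had an unadjusted p under 0.05, where 0.00748% of all genes (1 gene) passed. Fgb, Fgg and Ptx3, at no more than 0.343 FPKM in these libraries, are not counted in this or the next comparisons. Log2 fold changes ran from -0.19 for Saa1 to 0.39 for Socs3, with limma adjusted p of 0.735 to 0.993. The 95% interval was -0.44 to 1.22 for Socs3, -1.68 to 1.77 for Lrg1, -2.48 to 2.28 for Lcn2 and -3.18 to 2.79 for Saa1. These intervals allow differences of several-fold either way for Lcn2 and Saa1, and a p that misses the threshold does not show equal levels. Saa2 was the only gene higher in both PEITC than both control libraries at 16 weeks (21.0% of all genes), and none was lower in both (21.2%). TRAMP on PEITC at 16 weeks against the same wild type library gave no call in limma, with 2 genes at an unadjusted p under 0.05: Saa3 at -4.01 (limma adjusted p = 0.0532) and Lcn2 at -3.07 (limma adjusted p = 0.0977), where 32.8% of all genes passed. Within wild type, 24 against 16 weeks gave no call and none at an unadjusted p under 0.05, with log2 fold changes from -2.16 for Saa1 to -0.51 for Saa2, where 0.665% of all genes passed in limma.

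**Figure D4:**
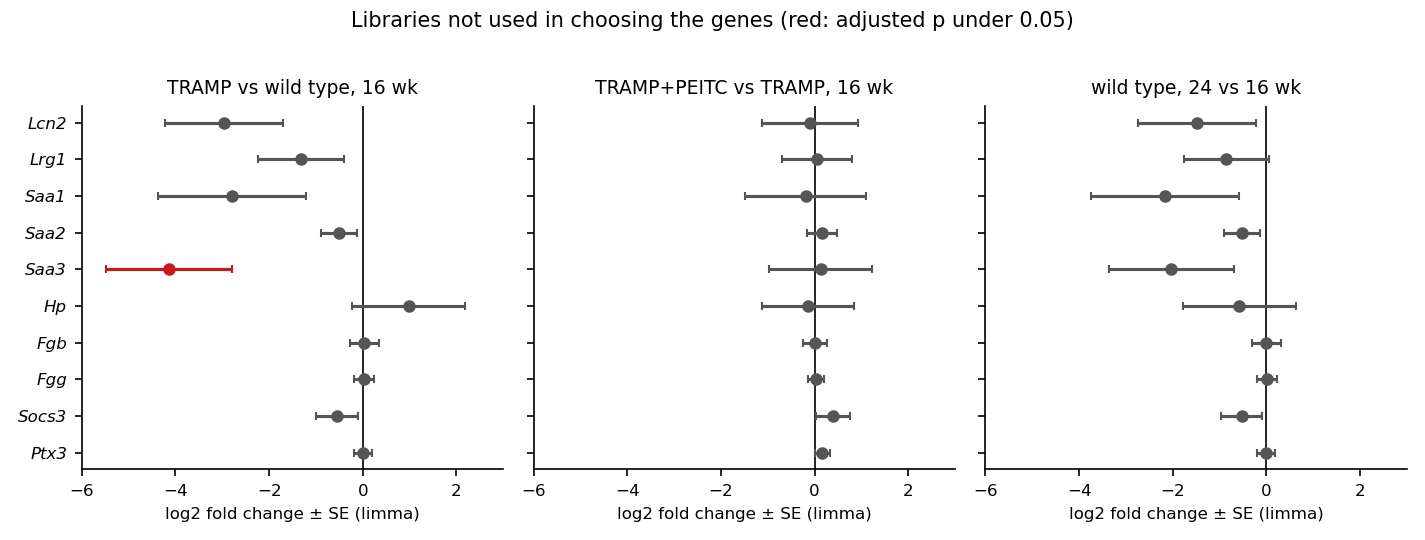
Log2 fold change ± standard error from limma, horizontal axis, for the 10 genes in libraries not used in choosing them. The first panel is TRAMP against wild type at 16 weeks and the second PEITC against control diet in TRAMP at 16 weeks. The third is wild type at 24 against 16 weeks. Fgb, Fgg and Ptx3 reached the minimum for testing through the tumor alone. They were at no more than 0.343 FPKM in these libraries, so their changes had to lie near 0. Saa3 in the first panel (-4.14, red) is the single call; the bars in the middle panel all span or lie near 0.

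Other acute-phase genes, a list of 41 of which 23 were high enough to test, were examined in the same libraries. In TRAMP against wild type at 24 weeks 11 rose and 4 fell, 65.2% of those tested against 45.0% of all genes, with a median log2 fold change of 0.86 against -0.00. With the replicate number as a block the list had no larger share of calls than all genes. In that fit replicate 2 is a single library, so TRAMP rests on replicate 0 alone, and the fit cannot decide whether the larger share holds. Serpina3n, a serine protease inhibitor, rose most (3.45, SE 0.90, limma adjusted p = 0.0164), followed by complement C3 (2.63, limma adjusted p = 0.0199), the metalloprotease inhibitor Timp1 (2.32, limma adjusted p = 0.0423) and complement C4b (2.09, limma adjusted p = 0.00987). In the same libraries 9 of 10 macrophage markers were higher in both TRAMP than in both wild type libraries, against 36.7% of genes tested. All 10 summed to 179 and 401 against 93.4 and 84.9 FPKM, and their part in these changes was not tested. Not all acute-phase genes moved that way. The metallothioneins Mt1 (-1.42, limma adjusted p = 9.74e-05) and Mt2 (-1.36, limma adjusted p = 0.00102) and ceruloplasmin, Cp (-1.10, limma adjusted p = 0.0116), fell. At 16 weeks none of the 23 rose and 4 fell, 17.4% against 33.6% of all genes: Fgl1, a fibrinogen-like secreted protein (-3.49, limma adjusted p = 0.000435), Mt2 (-2.27), Mt1 (-1.94) and Cp (-1.80). Fgl1 was at 35.0 FPKM in the 16-week wild type library and at 1.60 and 2.70 FPKM in the older wild type pair. That single library is the one with 7813 FPKM of seminal vesicle transcripts, whose part in these 4 calls was not tested.

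Acute-phase genes were taken up because several were high in this tumor and lower on PEITC at 24 weeks, and the list was chosen with earlier results known. Its counts in those 2 comparisons are therefore description, not independent support. The same holds for TRAMP against wild type at 24 weeks, which shares the TRAMP control libraries with both. The tumor is 1 library and its spread in limma was taken from the other groups. A difference between animals and a difference of the tumor thus cannot be told apart in any of its calls. With that limit, 8 of the 23 were called higher in the tumor than in TRAMP prostate at 24 weeks and none lower, 34.8% against 11.8% of all genes, with a median of 0.69 against -0.01. Among them were the leukocyte protease inhibitor Slpi (2.10, SE 0.27, limma adjusted p = 0.00546), Cp (1.93) and Fgl1 (1.65). Timp1 was at 165 FPKM in the tumor against 31.1 and 29.2 FPKM in TRAMP prostate (2.42, limma adjusted p = 0.145). On PEITC at 24 weeks no gene of the 13375 passed in limma, and 9.47% had an unadjusted p under 0.05, as did 6 of the 23. Serpina3n was at 39.8 and 31.5 FPKM on control diet and 2.73 and 5.17 FPKM on PEITC (-2.92, limma adjusted p = 0.474), and Timp1 at 31.1 and 29.2 against 5.08 and 4.97 FPKM (-2.37, limma adjusted p = 0.483). Neither pair of values overlapped. Wild type at 24 weeks had 4.21 and 1.12 FPKM of Serpina3n and 5.31 and 5.16 FPKM of Timp1. At 16 weeks PEITC gave no call among the 23 in limma and 1 at an unadjusted p under 0.05 (4.35% against 10.1% of all genes).

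The pathway upstream was described with a list of 45 genes of IL-6 family ligands, receptors, kinases and STAT proteins, and feedback, partner and target genes, of which 38 were tested. Il6 itself was too low to test, at 1.11 FPKM in the tumor and at most 0.0845 FPKM in the other 11 libraries. Lif was at 1.55 FPKM in the tumor and at most 0.259 FPKM elsewhere. Il11, a related cytokine, was at 5.78 FPKM in the tumor against 0.577 and 0.230 FPKM in TRAMP prostate at 24 weeks. It reached the minimum for testing through the tumor alone (mean 0.247 FPKM over the other 11 libraries), so no test of it is given.

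Among the receptors, Osmr, which binds oncostatin M, was at 17.8 FPKM in the tumor and at 4.07 and 2.84 FPKM in TRAMP prostate at 24 weeks. It was called higher in the single tumor library (2.09, SE 0.33, limma adjusted p = 0.00916) and rose in TRAMP against wild type at 24 weeks (0.76, limma adjusted p = 0.0485). Il6ra and Il6st were called higher in the tumor by 0.60 and 0.44 (limma adjusted p = 0.0444 and 0.0272) and differed from wild type in TRAMP prostate by -0.03 and 0.02 (limma adjusted p = 0.870 and 0.875). The LIF receptor gene Lifr was lower in TRAMP than in wild type at 16 weeks (-1.07, limma adjusted p = 0.0032). Of the 8 receptors, 1 rose and 4 fell in TRAMP at 24 weeks, 62.5% against 45.0% of all genes. Their median log2 fold change in the tumor was 0.00, against -0.01 over all genes.

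Stat3 was at 88.5 FPKM in the tumor, 82.9 and 49.1 FPKM in TRAMP prostate at 24 weeks and 39.7 and 39.2 FPKM on PEITC. It was at 37.5 to 48.6 FPKM in the other 7 libraries. Neither TRAMP against wild type (0.47, limma adjusted p = 0.095) nor PEITC (-0.68, limma adjusted p = 0.474) nor the tumor (0.47, limma adjusted p = 0.268) passed. Among feedback and target genes Bcl3, an IkB family co-factor, rose in TRAMP at 24 weeks by 2.38 (SE 0.43, limma adjusted p = 0.00303), with the IL-4 receptor gene Il4ra (1.25) and the kinase gene Pim1 (1.19). Bcl3 was at 57.6 FPKM in the tumor, 29.9 and 14.8 FPKM in TRAMP prostate at 24 weeks and 6.76 and 6.89 FPKM on PEITC. Socs2, another feedback inhibitor, was called higher in the tumor (1.55, limma adjusted p = 0.00666) with Il4ra (1.33, limma adjusted p = 0.013), but its levels were higher on PEITC (7.88 and 9.30 FPKM) than on control diet (5.05 and 5.05 FPKM) at 24 weeks, opposite to Socs3 and short of the threshold (0.66, limma adjusted p = 0.465).

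Over the 38 tested genes of the pathway, 13 rose and 8 fell in TRAMP at 24 weeks. That is 55.3% against 45.0% of all genes, with a median of 0.33. The fit with the replicate number as a block, where TRAMP rests on replicate 0 alone, cannot decide whether this larger share holds. At 16 weeks 7 rose and 5 fell, 31.6% against 33.6%. Of the 37 that reached the minimum without the tumor, 8 were called higher in the tumor and 1 lower, 24.3% against 11.6% of the genes chosen in the same way, with a median of 0.29. On PEITC none passed in limma at either age. At 24 weeks 12 of 38 had an unadjusted p under 0.05, 31.6% against 9.47% of all genes. At 16 weeks 2 of 38 did, 5.26% against 10.1%. Acute-phase and IL-6/STAT3 response genes were taken up because of the tumor and of PEITC at 24 weeks. The shares in those comparisons are therefore description, not independent support. So are those in TRAMP against wild type at 24 weeks, which uses the same TRAMP control libraries.

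**Figure D5:**
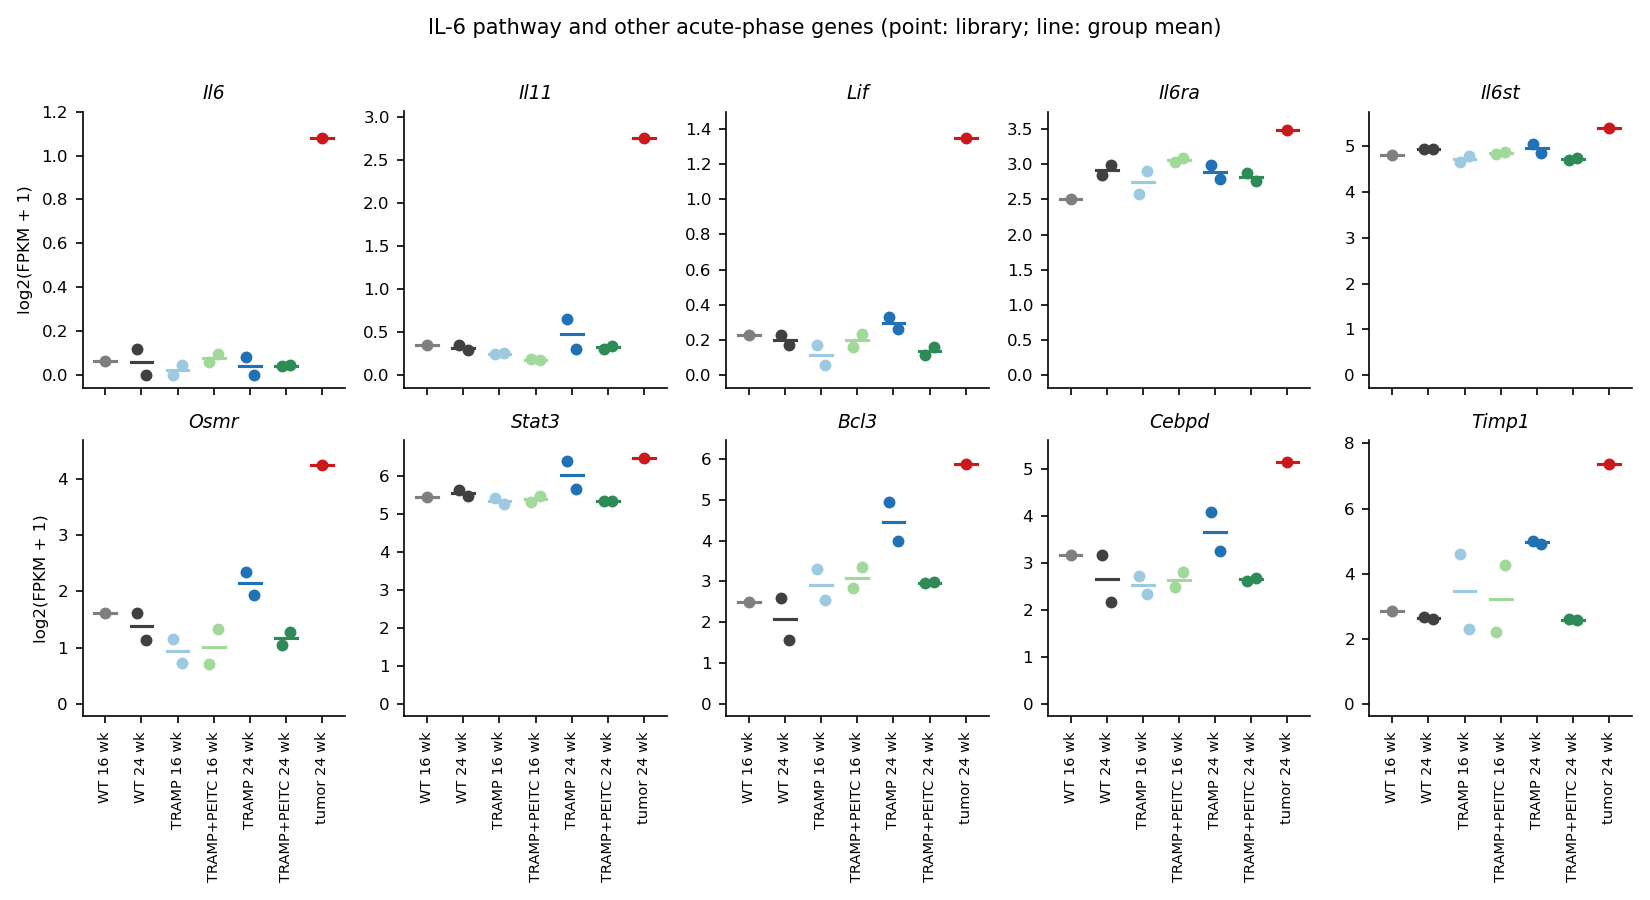
IL-6 family ligands (Il6, Il11, Lif), receptors (Il6ra, Il6st, Osmr), Stat3, its partners and targets (Bcl3, Cebpd) and the acute-phase gene Timp1 as log2(FPKM + 1), vertical axis, by group. Each point is a library and each line a group mean. The tumor was highest for all 10 genes shown, which are a selection from the lists and do not stand for them. Of the receptors not shown, Il11ra1, Il1rap and Il1r1 were lowest in the tumor (31.0, 1.42 and 16.8 FPKM). Osmr, Stat3, Bcl3, Cebpd and Timp1 were lower in both PEITC libraries than in both control libraries of TRAMP at 24 weeks. So were 20.8% of all genes tested.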

How the data were processed

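The deposited files give one FPKM value per gene for each of the 12 libraries, made by the authors from total RNA of mouse prostate or tumor. The submitters' processing notes name HISAT2, Picard, featureCounts and DESeq2 and the mm10 genome. Tool versions, the annotation and the total behind each FPKM were not stated, so depth in reads is unknown, and relative depth was read from the smallest steps between values. FPKM are not counts, so no count test was run. Values were converted to log2(FPKM + 1) in Python 3.11.15. Genes were kept where the mean over all libraries reached 0.5 FPKM, which left 13375. They were fitted in R 4.3.3 using limma 3.58.1, after the code was tested on simulated data. The fit had a mean for each of the 7 groups, 5 residual degrees of freedom, an intensity trend in the variances, and two-sided tests. Benjamini-Hochberg adjustment ran over the 13375 genes, and an adjusted p under 0.05 was a call. Groups with 1 library took their spread from the others, and comparisons against the 16-week wild type library share it. The labels do not say that libraries of a group came from separate animals, so p-values measure only the spread between these samples.

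The 10 genes and the gene lists were chosen with earlier results of these data known, and the 10 genes were tested only in libraries not used to choose them. Named genes were all 10; in each list and comparison the called genes with the largest changes, 4 at most; Il6, Il6ra, Il6st, Stat3 and Fga; and for each of the 10 the 3 named genes with the highest Pearson r over the 12 libraries. Values shown for Mt1, Mt2 and Cp at 24 weeks, for Osmr in TRAMP against wild type, and for Lif, Timp1, Serpina3n, Bcl3, Socs2 and Cebpd outside the comparison that named them were picked after they were seen. Some genes that the rule took are left out of the text. Gene positions came from GENCODE M21 and promoter sequences from RefSeq, both on GRCm38, the assembly of mm10. Figures were drawn with matplotlib 3.10.9. Alternatives were pseudocounts of 0.1 and 5, no filter, quantile normalization, and scaling without the 50 most abundant genes. Others were a fit of only the groups compared, a replicate block, each library left out, and the 24-week wild type libraries as control for 16 weeks. The fit without the tumor, and counts over genes that reach the filter without it, were added after the data were seen.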

Additional observations from a re-analysis of the deposited data

Results flagged for a closer look

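For 3 genes the TRAMP libraries on control diet lay above wild type at 24 weeks and below it at 16 weeks. Of all genes tested, 36.7% lay above at 24 weeks and 40.4% below at 16 weeks. How many did both was not counted, so nothing is read from the number. The log2 difference of TRAMP from wild type on control diet was 2.76 at 24 weeks and -1.32 at 16 weeks for Lrg1, 1.80 and -0.55 for Socs3, and 0.91 and -0.50 for Saa2. The 16-week values rest on 1 wild type library, the one with 7813 FPKM of seminal vesicle transcripts. The 24-week values rest on libraries used to choose the genes. For Saa2, both PEITC libraries lay below both control libraries at 24 weeks (-0.99) and above both at 16 weeks (0.15), at levels under 3 FPKM. Of all genes tested, 20.8% lay below at 24 weeks and 21.0% above at 16 weeks. The difference between the ages was not tested for any of them.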

How the results depend on the processing

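Depth in reads is unknown, groups hold 1 or 2 libraries, and the count of the 10 genes called rested on a single wild type library at 16 weeks. That count for TRAMP against wild type at 16 weeks, 1 in the analysis reported, was 0 with no filter, 0 with the replicate block, 0 with the 24-week wild type libraries as control, 0 to 0 with a library left out and 3 with only the groups compared. For PEITC-fed TRAMP against wild type at 16 weeks it was 0, and became 1 with pseudocount 5, 1 with quantile normalization and 2 with only the groups compared. For wild type at 24 against 16 weeks it was 0, and 0 to 1 with a library left out (1 without replicate 0 at 24 weeks). For PEITC at 16 weeks it was 0 in every alternative run. The acute-phase list at 24 weeks (TRAMP against wild type) had 15 calls, 6 with the replicate block and 6 to 11 with a library left out, fewest without wild type replicate 1; the IL-6 list had 21, and 13 to 19 with a library left out, fewest without TRAMP replicate 0 or wild type replicate 1. At 16 weeks the IL-6 list had 12, and 6 with only the groups compared. For PEITC at 24 weeks the acute-phase list had 0, and 1 with the replicate block, 1 with only the groups compared and 0 to 2 with a library left out; the IL-6 list had 0, and 1 with the block and 0 to 1 with a library left out. Same-numbered libraries showed no steady likeness: their deviations correlated at -0.31 to 0.28 between the groups with replicates 0 and 1. That check left out TRAMP on control diet at 24 weeks and does not show how the samples were arranged. In the block fit replicate 2 is a single library, so comparisons with TRAMP on control diet at 24 weeks rest on its replicate 0 alone. The counts of that fit at 24 weeks are therefore not like for like with the analysis reported. The median log2 difference of the 10 genes with pseudocount 0.1 was 2.53 for TRAMP against wild type at 24 weeks, -2.77 for PEITC and 2.70 for TRAMP at 24 against 16 weeks; with pseudocount 5 the last 2 were -0.71 and 0.76. Signs reversed when a library was left out, with these ranges over the libraries left out: Hp at 16 weeks -0.10 (without TRAMP replicate 0) to 2.05 on control diet and -0.18 (without replicate 1) to 1.86 on PEITC; in wild type at 24 against 16 weeks Lcn2 -3.22 to 0.23, Saa3 -4.09 to 0.038 and Hp -1.39 to 0.23 (highest without replicate 1 at 24 weeks); in TRAMP against wild type at 24 weeks Lcn2 -0.68 (without wild type replicate 1) to 2.77 and Saa3 -2.92 to 1.21 (without replicate 0); and in the tumor Saa1 -0.41 (without TRAMP replicate 2) to 3.23. The causes were not tested.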
